A study of Mus musculus with 4 samples.

Results

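Expression of 9 genes of extracellular ATP breakdown, adenosine handling and ATP sensing was examined in the mouse lines TS1 and TS2, which derive from CD4+ T lymphocytes according to the labels. The genes are Entpd1, Nt5e, Adora2a, Adora2b, P2rx7, Ada, Adk, Dpp4 and Slc29a1. They were chosen by name, with earlier results of these data known, and each is represented by the brightest probe set that names it alone. Of these 9 genes, 7 were measured among 19938 genes in all, and each of the 7 had 1 such probe set; Adora2a and Adora2b are not analysed here. Both lines grew in Iscove-Dulbecco's medium with murine interleukin-9, a T cell growth factor, and received no treatment. Total RNA of 2 biological duplicates per line, lettered A and B, was read on 1 Affymetrix mouse gene array each. The labels say that cells were grown in duplicate and nothing on how far apart the cultures were kept. The p-values therefore rest on the spread between the 2 arrays of a single line, part of which may be technical. That spread was pooled over the lines and, by limma, drawn toward the spread of all genes. Levels are log2 of normalized intensities, and a difference is TS2 minus TS1 on that scale with its standard error (SE).

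ATP that reaches the cell surface is a danger signal, and a chain of surface enzymes turns it into adenosine, which restrains T cells. CD39, encoded by Entpd1, removes phosphates from ATP and ADP to leave AMP, and CD73, encoded by Nt5e, converts AMP to adenosine. Adenosine acts on G protein-coupled receptors that set cyclic AMP, or it is taken up by carriers such as the one encoded by Slc29a1 and consumed by adenosine deaminase (Ada) and adenosine kinase (Adk). ATP that is not degraded can open the channel P2X7, encoded by P2rx7, which in mouse T cells can lead to shedding of surface proteins and to cell death.

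The lines differed at both enzymes of the surface chain, in opposite directions. TS2 had far more Entpd1 transcript, and TS1 had more Nt5e. Ada, Adk and Slc29a1, which take up or consume adenosine, were higher in TS1, and P2rx7 was higher in TS2 by a smaller amount. In the limma fit with Benjamini-Hochberg adjustment over all 19938 genes, 2 of the 7 measured genes passed as higher in TS2 and 4 as higher in TS1 at an adjusted p under 0.05, while 13.5% of all genes passed. By direction, the share of all genes was 5.05% for higher in TS2 and 8.45% for higher in TS1. In RNA of whole cultures, a smaller share of expressing cells and less transcript per cell cannot be told apart. For 6 of the 7 genes both arrays of 1 line lay above both of the other, which held for 58.4% of all genes. The median difference of the 7 genes was -0.58, and that of all genes was 0.013.

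**Figure D1:**
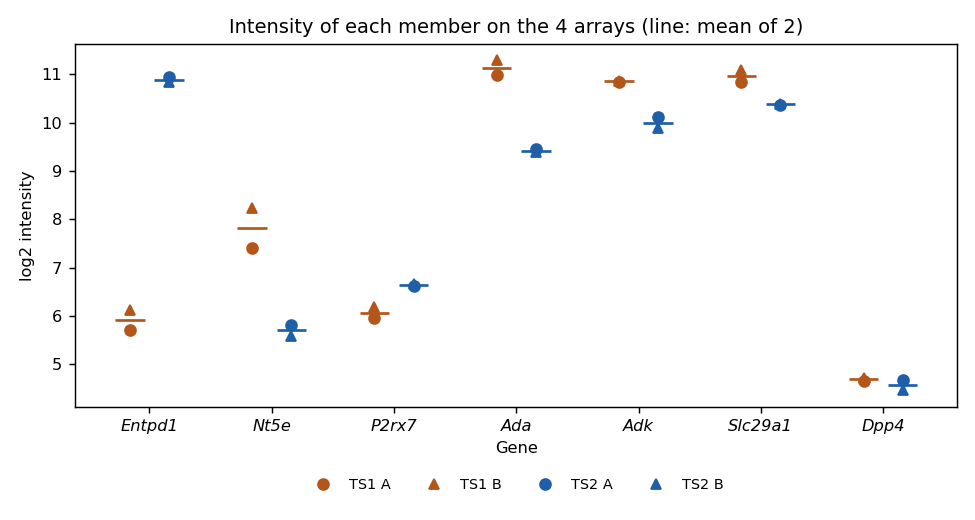
Log2 intensity (vertical axis) of the 7 measured genes (horizontal axis) on each of the 4 arrays; circles are duplicate A, triangles duplicate B, and short lines the mean of 2 arrays. Entpd1 lies near 6 in TS1 and near 11 in TS2, Nt5e is higher in TS1, and Dpp4 is the one gene whose lines overlap.

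Entpd1, at the head of the chain, had log2 intensities of 5.71 (A) and 6.14 (B) in TS1 and of 10.95 (A) and 10.83 (B) in TS2. Both TS2 arrays lay far above both TS1 arrays. As deposited, on the linear scale, these intensities were 52.5 and 70.3 in TS1 against 1973 and 1825 in TS2. TS1 averaged 5.92 ± 0.30 (SD, n = 2) and TS2 averaged 10.89 ± 0.079 (SD, n = 2), a 31.2-fold difference. On the log2 scale it was 4.97 (SE 0.16, limma adjusted p = 0.000358), with a 95% interval of 4.55 to 5.38. Among all 19938 genes this was the difference of rank 30 by size. It stayed between 4.76 and 5.18 whichever array was left out, with an adjusted p of at most 0.00283. In TS1 the probe set was brighter than 37.7% of genes on array A and 44.3% on array B, and signal over background was not examined, so the fold is less certain than the direction.

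Nt5e, the next step, had log2 intensities of 7.41 (A) and 8.23 (B) in TS1 and of 5.82 (A) and 5.59 (B) in TS2. Both TS1 arrays were higher than both TS2 arrays, but the TS1 duplicates lay 0.82 apart, the widest spread of the 7 genes. TS1 averaged 7.82 ± 0.58 (SD, n = 2) and TS2 averaged 5.71 ± 0.16 (SD, n = 2), so that Nt5e was 4.32-fold higher in TS1. The difference was -2.11 (SE 0.28, limma adjusted p = 0.0131), with a 95% interval of -2.84 to -1.39. It no longer passed when a TS2 array was left out (adjusted p of 0.0540 without A and 0.0654 without B), while the difference itself ran from -2.52 to -1.70 over the arrays left out.

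Because these genes sit next to each other in the pathway and differed in opposite directions, the 250 bases before each of their RefSeq transcription starts are shown (build GRCm38.p6, all on the plus strand, 5′ to 3′). RefSeq lists 2 starts for Entpd1, with windows at chr19:40612116-40612365 and chr19:40659520-40659769, and 1 for Nt5e, at chr9:88327359-88327608. Capitals mark matches on either strand to 5 motifs. TGACG is the core of the cyclic AMP response element (CRE). ACGTG is a form of the core of hypoxia response elements, whose other forms were not searched. The GC box, GGGCGG, is bound by SP1. AGATAA is a first form of the GATA motif, with TGATAA as the other form searched.
Entpd1, first start: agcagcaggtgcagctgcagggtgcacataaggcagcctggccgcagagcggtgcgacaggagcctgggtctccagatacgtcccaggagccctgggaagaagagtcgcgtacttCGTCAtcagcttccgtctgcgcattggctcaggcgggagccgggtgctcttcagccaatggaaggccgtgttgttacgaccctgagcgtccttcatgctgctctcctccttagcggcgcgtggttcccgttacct
Entpd1, second start: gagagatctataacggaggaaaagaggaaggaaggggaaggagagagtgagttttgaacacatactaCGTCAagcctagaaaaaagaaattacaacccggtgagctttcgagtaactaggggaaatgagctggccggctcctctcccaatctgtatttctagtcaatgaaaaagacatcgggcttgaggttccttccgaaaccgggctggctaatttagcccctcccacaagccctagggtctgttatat
Nt5e: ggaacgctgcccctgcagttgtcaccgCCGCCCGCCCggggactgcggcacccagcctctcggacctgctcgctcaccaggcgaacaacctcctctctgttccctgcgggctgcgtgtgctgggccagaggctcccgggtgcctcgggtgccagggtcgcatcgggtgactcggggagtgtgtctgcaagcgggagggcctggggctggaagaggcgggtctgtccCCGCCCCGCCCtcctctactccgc

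Each Entpd1 window held 1 CRE core on the minus strand, which begins 135 bases before the first start and 183 bases before the second. The Nt5e window held no CRE core, but it held 4 GC boxes, also on the minus strand, in 2 overlapping pairs that begin 223 and 219, and 24 and 19, bases before the start. Neither gene had a match to the ACGTG form of the hypoxia core or to either GATA form searched in these windows. A CRE core was present in 17.8% and a GC box in 32.7% of the 32851 promoter windows of this length in the same table. The windows also differed in composition: GC content was 62.4% and 47.2% at the Entpd1 starts and 72.0% at Nt5e, against a median of 52.4%. Over all 7 measured genes and any of their listed starts, 5 had a GC box and 3 a CRE core. The first GATA form was found in 3, the ACGTG form of the hypoxia core in 1 and the other GATA form in 0. At least 1 match in any window was found for 35.4% of all genes with the GC box and 19.8% with the CRE core. The share was 11.4% with the first GATA form, 18.5% with the ACGTG form of the hypoxia core and 9.21% with the other GATA form. Some of the 7 genes have several starts, up to 8 for Slc29a1, which gives them more chances of a match. These letters are a description of the sequence, and the arrays do not tell which start was used.

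**Figure D2:**
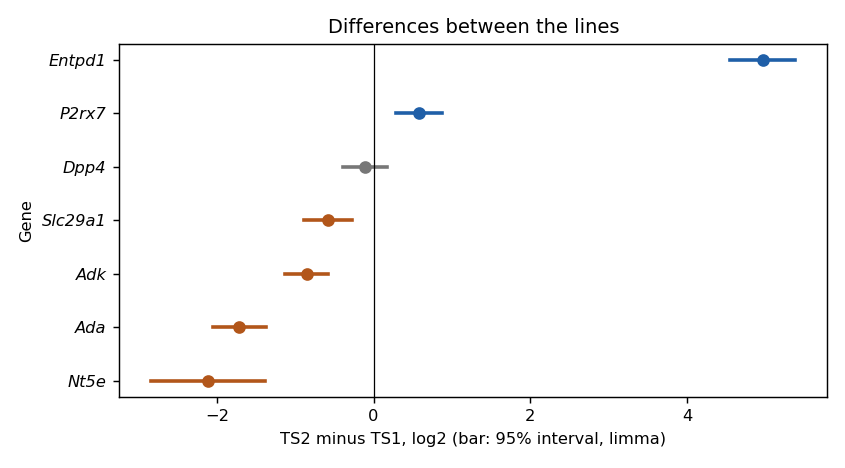
Difference TS2 minus TS1 (log2, horizontal axis) for the 7 measured genes (vertical axis), with the 95% interval of the limma fit as a bar. Entpd1 stands at 4.97, P2rx7 at 0.58, and Slc29a1, Adk, Ada and Nt5e lie to the left of 0, with only the interval of Dpp4 crossing it.

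P2rx7, the receptor for ATP that escapes breakdown, had log2 intensities of 5.95 (A) and 6.19 (B) in TS1 and of 6.63 (A) and 6.67 (B) in TS2. The TS2 arrays were higher without overlap, but the gap was small next to that of Entpd1. TS1 averaged 6.07 ± 0.17 (SD, n = 2) and TS2 averaged 6.65 ± 0.028 (SD, n = 2), which is 1.49-fold. The difference of 0.58 (SE 0.11, limma adjusted p = 0.0351) had a 95% interval of 0.29 to 0.87. That call rested on single arrays: the adjusted p was 0.0738 without TS1 A, 0.151 without TS2 A and 0.164 without TS2 B. P2rx7 has several transcripts in the mouse, and 1 probe set for the gene does not separate them. The probe set was brighter than 41.6% (A) and 45.1% (B) of genes in TS1, and than 51.0% (A) and 50.9% (B) in TS2. Signal over background was not examined, so the fold is uncertain.

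Of the receptors for adenosine itself, those encoded by Adora2a and Adora2b are not analysed here. A probe set that names both Adora3, the A3 adenosine receptor, and Tmigd3, which lies at the same locus, was left out of the gene counts because its signal cannot be assigned to 1 of them. It had log2 intensities of 10.84 (A) and 10.90 (B) in TS1 and of 7.75 (A) and 8.93 (B) in TS2. In a limma fit of all 35556 probe sets, added after these values were seen, it was 5.76-fold higher in TS1 (difference -2.53, SE 0.41, adjusted p = 0.0475), where 5.2% of all probe sets passed. Leaving out a TS1 array ended the call (adjusted p of 0.124 for A and 0.163 for B). Probe sets naming Gnas, the stimulatory G protein gene that raises cyclic AMP, with Gnasas1, and Prkaca, a catalytic subunit of the cyclic AMP-dependent kinase, with Samd1, were not called (differences 0.22 and 0.078, limma adjusted p = 0.283 and 0.777).

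Ada, which deaminates adenosine to inosine, had log2 intensities of 10.98 (A) and 11.29 (B) in TS1 and of 9.46 (A) and 9.39 (B) in TS2. It was bright in both lines and clearly higher in TS1. Ada averaged 11.14 ± 0.22 (SD, n = 2) in TS1 against 9.42 ± 0.050 (SD, n = 2) in TS2, a 3.27-fold excess in TS1. Its difference was -1.71 (SE 0.13, limma adjusted p = 0.00265), with a 95% interval of -2.05 to -1.38. Ada and Entpd1 were the 2 of the 7 genes that passed whichever array was left out, Ada with an adjusted p of at most 0.0193.

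Adk, the kinase that returns adenosine to AMP inside the cell, had log2 intensities of 10.84 (A) and 10.87 (B) in TS1 and of 10.11 (A) and 9.90 (B) in TS2. TS1 was higher on both arrays, 1.80-fold on average. For Adk the difference was -0.85 (SE 0.11, limma adjusted p = 0.0113), and its 95% interval ran from -1.13 to -0.58. Without TS2 B the adjusted p was 0.0591.

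Slc29a1, which encodes the equilibrative nucleoside transporter ENT1, had log2 intensities of 10.83 (A) and 11.09 (B) in TS1 and of 10.37 (A) and 10.39 (B) in TS2. The lines did not overlap, and TS1 was 1.49-fold higher. The difference of -0.58 (SE 0.12, limma adjusted p = 0.0378) had a 95% interval of -0.88 to -0.28. Its adjusted p was 0.0877 without TS1 B, 0.175 without TS2 A, 0.156 without TS2 B and 0.0513 after renewed quantile normalization, so the call depended on these choices.

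Dpp4, the surface peptidase CD26, binds adenosine deaminase at the cell surface in humans. It had log2 intensities of 4.66 (A) and 4.72 (B) in TS1 and of 4.69 (A) and 4.47 (B) in TS2. All 4 values lay under the lower quartile of genes on their arrays, which was 5.02 to 5.09, and the lines overlapped. The difference was -0.11 (SE 0.11, limma adjusted p = 0.582), with a 95% interval of -0.39 to 0.17.

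**Figure D3:**
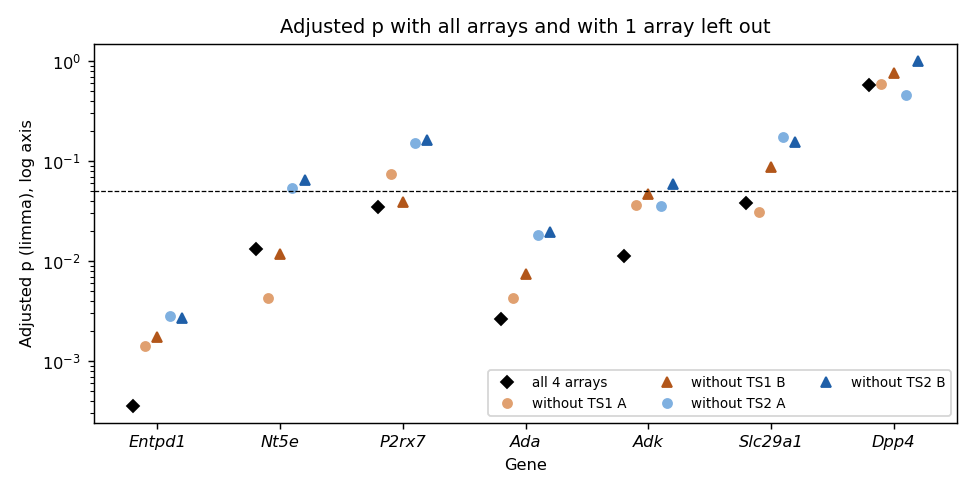
Benjamini-Hochberg adjusted p of the limma fit (vertical axis, log scale) for the 7 measured genes (horizontal axis) with all 4 arrays and with each array left out; the dashed line is 0.05. Entpd1 and Ada stay under the line in every case shown, Nt5e crosses it without either TS2 array, and Dpp4 stays above it.

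Duplicates of a line also differed from each other. All 7 genes were higher on TS1 B than on TS1 A, by 0.027 for Adk to 0.82 for Nt5e, while 55.6% of all genes were higher on TS1 B. In TS2, 5 of the 7 were lower on array B than on array A, by at most 0.23, for Nt5e, while P2rx7 and Slc29a1 were higher on B, as were 46.8% of all genes. For Entpd1 and P2rx7 the TS1 B value therefore lay nearer to the TS2 mean than TS1 A did, and for Nt5e, Ada, Adk, Slc29a1 and Dpp4 it lay farther from it. The median intensity over all 35556 probe sets was 89.0 (A) and 92.5 (B) in TS1 and 88.6 (A) and 89.9 (B) in TS2.

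Marker genes were examined for the labelled cell type and for others. Of 8 measured T cell markers, 3 were higher in TS2 (Cd3e, Cd247 and Zap70) and 5 were not called. Below the array median were 6 (A) and 7 (B) of the 8 in TS1, and 3 (A) and 4 (B) in TS2. Cd4 was dim in both lines, at 5.37 in TS1 and 5.21 in TS2, as were Cd3d (4.77 and 4.86) and Cd5 (5.85 and 6.16). Cd28 was dim in TS1, at 4.52, and lay at 7.14 (A) and 4.95 (B) in TS2. Cd3g lay far apart between the TS1 duplicates, at 10.52 (A) and 6.07 (B). Summed over the 8 genes, the linear intensity was 821.3 to 2115 in TS1 and 10880 to 12570 in TS2. The 5 measured B cell markers were below the array median on all 4 arrays, with sums of 192.2 to 201.4. The sum of 7 macrophage markers was 435.5 to 458.8 in TS1 and 318.0 to 350.9 in TS2, and that of 7 fibroblast markers 527.6 to 635.4 and 504.3 to 505.4. The fibroblast list includes Thy1, which is not specific to fibroblasts and lay at 6.10 in TS1 and 6.24 in TS2. Of the macrophage markers Cd68 alone was called, higher in TS1 (difference -0.64, limma adjusted p = 0.0261), and without TS1 A, TS2 A or TS2 B it was not (adjusted p of at most 0.136). Of the fibroblast markers, Pdgfra alone was called, higher in TS1 (difference -1.78, limma adjusted p = 0.0325), a call lost without TS1 B, TS2 A or TS2 B (adjusted p of at most 0.141). Of 5 endothelial markers 0 were called, and their sum was 462.6 to 1222 in TS1 and 235.8 to 438.7 in TS2. Pecam1 carried that sum, at log2 intensities of 10.07 and 8.25 in TS1 and 6.38 and 8.06 in TS2, with duplicates far apart in both lines and no call (limma adjusted p = 0.184). Mast cell markers were bright in both lines through Fcer1a (12.69 to 13.08), with Cpa3 at 7.95 to 9.13, and 3 of 6 were below the array median on each array. Kit alone was called, higher in TS1 (difference -1.90, limma adjusted p = 0.00153). Mcpt4 had the widest difference of the 6, 2.96 toward TS2, and was not called (limma adjusted p = 0.158). Its log2 intensities were 5.45 (A) and 5.33 (B) in TS1 and 6.60 (A) and 10.10 (B) in TS2. Entpd1, Nt5e and Ada are also transcribed in several of these cell types, and the part of such cells in the differences was not tested.

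Around the 9 genes, 119 other genes were listed by role, also with earlier results of these data known, and 105 of them were measured. By limma, 13 of the 105 passed as higher in TS2, 11 passed as higher in TS1 and 81 were not called, which is 22.9% called against 13.5% of all genes. The median difference was -0.023. The lists hold no set test, and leaving out TS2 A or TS2 B removed 13 of the 24 calls each.

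**Figure D4:**
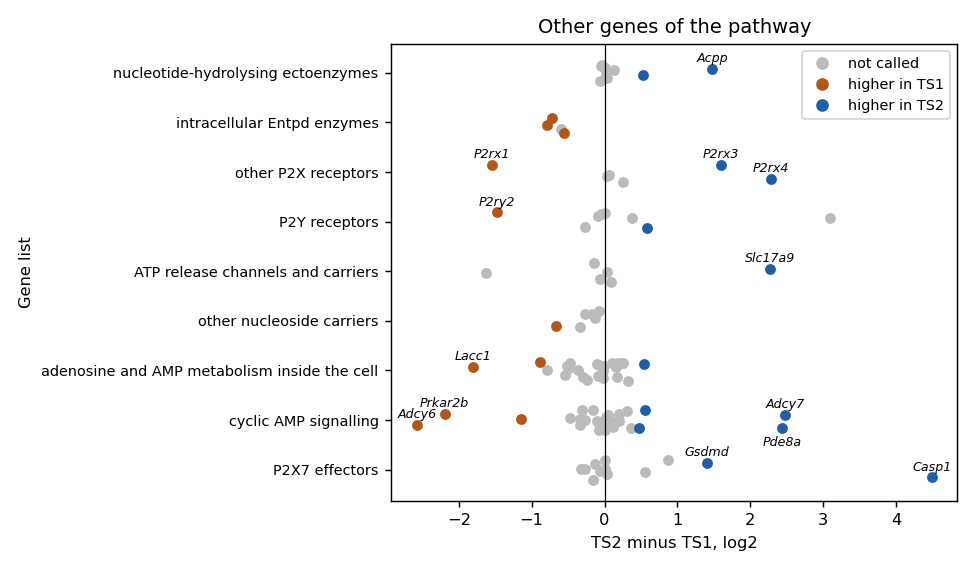
Difference TS2 minus TS1 (log2, horizontal axis) for 105 other genes of the pathway, 1 point per gene, by gene list (vertical axis; the vertical spread within a list has no meaning). Blue points were called higher in TS2, orange points higher in TS1, and grey points were not called; Casp1 at 4.49 lies farthest to the right and Adcy6 at -2.58 farthest to the left.

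Of 11 other measured enzymes that act on nucleotides outside the cell, 2 were higher in TS2 and 9 were not called, with a median difference of 0.025. That is 18.2% called, against 13.5% of all genes. Acpp, the prostatic acid phosphatase that can also cleave AMP, had log2 intensities of 5.47 and 5.50 in TS1 and 6.87 and 7.06 in TS2 (difference 1.48, SE 0.10, limma adjusted p = 0.00215). Alpl, the tissue-nonspecific alkaline phosphatase, which also hydrolyses AMP, differed by 0.0059 (limma adjusted p = 0.980). Enpp4, which hydrolyses dinucleotides, was higher in TS2 by 0.52 (limma adjusted p = 0.0273), a call lost whichever array was left out (adjusted p of 0.0701 to 0.159). The close relatives of Entpd1 at the surface, Entpd2, Entpd3 and Entpd8, differed by -0.057 to 0.034 (limma adjusted p of 0.734 to 0.944).

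Of 4 measured members of the Entpd family that reside inside the cell, 3 were higher in TS1 and 1 was not called, with a median difference of -0.66. That is 75% called, against 13.5% of all genes, and the 3 calls were each lost without TS2 A and without TS2 B. Entpd6 differed by -0.79 (SE 0.087, limma adjusted p = 0.00785), Entpd4 by -0.73 (limma adjusted p = 0.0148) and Entpd7 by -0.56 (limma adjusted p = 0.0290). Entpd4 and Entpd7 hydrolyse nucleotides in the Golgi and other internal membranes. The calls of Entpd4 (adjusted p of at most 0.0898) and Entpd6 (at most 0.0568) were lost without either TS2 array, and that of Entpd7 was lost whichever of the 4 arrays was left out (0.0509 to 0.160) and after renewed quantile normalization (0.0543). Entpd5, at -0.60, did not pass (limma adjusted p = 0.0735).

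Among the other ATP-gated P2X channels, 3 of 6 were called, or 50%, against 13.5% of all genes. P2rx4, a channel found largely on lysosomes, had log2 intensities of 9.23 and 8.17 in TS1 and 10.999 and 10.959 in TS2, a difference of 2.28 (SE 0.35, limma adjusted p = 0.0183). P2rx3, best known from sensory neurons, was dim in TS1, at 5.58 and 4.93, and higher in TS2, at 6.99 and 6.73 (difference 1.60, limma adjusted p = 0.0168). P2rx3 has more than 1 probe set, and with all of them averaged its difference was smaller, 0.93 (limma adjusted p = 0.0106). P2rx1, a fast-desensitizing channel, was higher in TS1, with 10.45 and 9.90 against 8.69 and 8.58 in TS2 (difference -1.54, limma adjusted p = 0.0117). These 3 calls were each lost without TS2 A and without TS2 B, with adjusted p of at most 0.0854 for P2rx4, 0.0849 for P2rx3 and 0.0613 for P2rx1. The channels of the family thus did not share 1 direction.

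P2rx4 is also the neighbour of P2rx7 on chromosome 5. The nearest measured protein-coding gene on each side of the 7 genes was examined after their values were seen, with the order of genes taken from the RefSeq table of GRCm38.p6. Of the 14 neighbours, 3 were called by limma, where 13.5% of all genes were, so the count is a description of these neighbours only. Called in the direction of the gene they flank were P2rx4 beside P2rx7 and Pkig, an inhibitor of the cyclic AMP-dependent kinase, beside Ada on chromosome 2 (difference -1.15, SE 0.11, adjusted p = 0.00550). Ccnj, a cyclin next to Entpd1 on chromosome 19, was higher in TS1 (difference -1.56, limma adjusted p = 0.0277), opposite to Entpd1. Both neighbours of Nt5e were not called, with differences of 0.096 for Tbx18 and 0.42 for Snx14.

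Receptors of the P2Y family, most of which couple nucleotides to G proteins, were called in 2 of 8 cases, or 25%, against 13.5% of all genes. P2ry2, a receptor for ATP and UTP, had log2 intensities of 7.41 and 7.36 in TS1 and 5.96 and 5.85 in TS2 (difference -1.48, SE 0.093, limma adjusted p = 0.00161). P2ry14, a receptor for UDP-sugars, was bright in both lines and higher in TS2 by 0.59 (limma adjusted p = 0.0316), a call that did not survive without TS1 A, TS2 A or TS2 B (adjusted p of at most 0.166). P2ry10, listed here by its name, had the widest difference of the list, 3.10, and did not pass (limma adjusted p = 0.0685). Its duplicates lay far apart in TS1, at 8.33 (A) and 5.94 (B), against 9.85 (A) and 10.63 (B) in TS2.

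Supply of ATP and transport of nucleosides were represented by 12 measured genes. Of 6 genes of ATP release, Slc17a9, the carrier that loads ATP into vesicles, was called, with log2 intensities of 6.28 and 6.09 in TS1 and 8.43 and 8.49 in TS2 (difference 2.28, SE 0.11, limma adjusted p = 0.000718). It passed whichever array was left out (adjusted p of at most 0.00684). The channel Panx1 differed by -0.065 (limma adjusted p = 0.826). Of 6 other nucleoside carriers, Slc29a3, a relative of Slc29a1 in lysosomes and mitochondria, was called, higher in TS1 (difference -0.67, limma adjusted p = 0.0346). That call was lost without TS1 A, TS2 A or TS2 B, with adjusted p of at most 0.166, and after renewed quantile normalization (0.0584). The other 5 carriers did not pass, and each list of 6 had 16.7% called, near the share of all genes.

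Enzymes of adenosine and AMP metabolism inside the cell were called in 3 of 24 cases, 12.5%, close to the share of all genes. Adsl, which makes AMP in purine synthesis, was higher in TS1 by a difference of -0.89 (SE 0.087, limma adjusted p = 0.00565). Lacc1, a purine enzyme of immune cells, differed by -1.80 (limma adjusted p = 0.04998), at the edge of the threshold. Its TS2 arrays lay at 6.57 and 7.81, and its call was lost without TS1 A (adjusted p = 0.145), without TS1 B (0.129), with a prior variance robust to outliers (0.0805), after renewed quantile normalization (0.0640) and, by the narrowest margin, with all probe sets of a gene averaged. Aprt, which salvages adenine, was higher in TS2 by 0.54 (limma adjusted p = 0.0368), a call that did not survive without TS1 A, TS2 A or TS2 B (adjusted p of at most 0.179). Pnp, which acts on the inosine that Ada makes, differed by 0.16 (limma adjusted p = 0.442).

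Of 28 measured genes of cyclic AMP signalling, the pathway that adenosine receptors feed, 4 were higher in TS2, 3 in TS1 and 21 were not called. That is 25% called, against 13.5% of all genes. The adenylyl cyclases split: Adcy7 was higher in TS2, with 8.07 and 7.75 in TS1 against 10.66 and 10.12 (difference 2.48, SE 0.21, limma adjusted p = 0.00377), and Adcy6 was higher in TS1, with 7.97 and 8.64 against 5.69 and 5.77 (difference -2.58, SE 0.23, limma adjusted p = 0.00426). Both make cyclic AMP. Pde8a, which degrades it, was higher in TS2 by 2.44 (SE 0.12, limma adjusted p = 0.000748). Its TS1 values of 4.81 and 4.91 lay under the lower quartile of genes, so the size of that difference carries the same limit as Entpd1. Prkar2b, a regulatory subunit of the cyclic AMP-dependent kinase, was higher in TS1 (difference -2.19, SE 0.25, limma adjusted p = 0.00812). These 4 kept passing with any 1 array left out, at an adjusted p of at most 0.0361. Crem was also called, higher in TS1 (difference -1.14, limma adjusted p = 0.0472). Pde4a and Prkar1b were called higher in TS2 (differences 0.56 and 0.48, limma adjusted p = 0.0364 and 0.0300). The calls of Crem, Pde4a and Prkar1b were less stable. Prkar1b lost its call on removal of any single array, and Pde4a on removal of any but TS1 A. Crem lost its call on removal of either TS2 array. The median difference of the list was 0.016.

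Of 12 measured genes that act below P2X7, 2 were called, both higher in TS2; this share, 16.7%, is near the 13.5% of all genes. Casp1, the protease of the inflammasome, had log2 intensities of 4.42 and 4.36 in TS1 and 8.39 and 9.38 in TS2, a difference of 4.49 (SE 0.32, limma adjusted p = 0.00226). In TS1 Casp1 lay under the lower quartile of genes, as Dpp4 did, and signal over background was not examined, so the size of its difference is less certain than the direction. Gsdmd, the pore-forming protein that Casp1 cleaves, was higher by 1.40 (limma adjusted p = 0.0141), which did not pass when TS1 A was left out (adjusted p = 0.0525). Nlrp3 and Il1b were dim in both lines, with means of 4.46 to 4.83, and Pycard lay at 5.56 in TS1 and 5.57 in TS2. The list's median difference was 0.0079.

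The genes most like Entpd1 and Nt5e over the 4 arrays were found as those with the smallest Euclidean distance after each gene's mean was subtracted, among 17060 genes. For Entpd1 these were Cdh2 (distance 0.48), Cd200r1 (0.53), Klrk1 (0.58) and Hpgds (0.63), on the log2 scale. They encode N-cadherin, an inhibitory receptor of leukocytes, the activating receptor NKG2D and hematopoietic prostaglandin D synthase. For Nt5e they were Marveld1 (0.16), Tbc1d8 (0.21), Prkar2b (0.23) and Unc79 (0.27). With 4 arrays, the likeness rests mainly on the size of the difference between the lines, and it is a description with no test.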

How the data were processed

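The deposited intensities were made with Affymetrix Expression Console and RMA, per the submitters' processing notes; RMA corrects background and normalizes between arrays. Versions, filters and array library files are not stated there. The deposited intensity values were linear (5.98 to 23157), so log2 was taken, with no pseudocount and no filter. Of 35556 probe sets, 21789 had 1 gene symbol in the platform annotation file, 1621 several and 12146 none. Symbols were updated by Entrez number through RefSeq (GRCm38.p6), with 21698 found. The brightest probe set by the mean of the 4 arrays stood for each of 19938 genes.

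TS2 was compared with TS1 in limma 3.58.1 (lmFit, eBayes; R 4.3.3; package data.table, version 1.17.8) with Benjamini-Hochberg adjustment over all genes, called at 0.05; the model had 2 residual degrees of freedom and the prior 3.03. An exact two-sided permutation of the 4 arrays reaches no p below 0.333. On simulated data with 200 of 19938 genes changed, 64.0% of changes of 1 and 95.3% of changes of 2 (log2) were recovered, with 7.35 false calls on average. Variances were drawn from the prior that limma fitted, with normal values independent between arrays. These rates therefore hold under the model's own assumptions and do not speak for duplicates that are partly technical. The 9 genes and the lists were chosen with earlier results of these data known. Named are the 9 genes, up to 4 called genes of each list with the largest differences and the 4 genes most like Entpd1 and Nt5e (predicted, clone-like and small RNA symbols left out); others were named after their values were seen. As alternatives, each array was left out in turn, the replicate letter was added as a block, prior variances were changed, arrays were median-centred or quantile-normalized again, the dimmest 30% of genes were dropped, probe sets of a gene were averaged, and an adjusted p under 0.01 was used. Arrays carry no detection calls or scan days here, and their number limits precision. Promoter sequences are RefSeq's, found for all 7 measured genes.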

Additional observations from a re-analysis of the deposited data

How the results depend on the processing

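No alternative turned the direction of any of the 7 measured genes. With the replicate letter as a block, P2rx7 (0.58, adjusted p = 0.0624) and Slc29a1 (-0.58, adjusted p = 0.0663) lost their calls. In that fit 1666 of all genes, 4 of the 7 and 16 of the 105 other pathway genes passed. Of those other genes, Aprt, Enpp4, Entpd7, Lacc1, P2ry14, Pde4a, Prkar1b and Slc29a3 lost their calls. The labels do not say whether the letters pair the arrays. Across genes, B minus A in TS1 and in TS2 correlated at -0.029, which cannot tell how the cultures were handled. Without moderated variances 0 of all 19938 genes, 0 of the 7 and 0 of the 105 other pathway genes passed (4156 genes at an unadjusted p under 0.05), with the differences as before: Entpd1 4.97, Nt5e -2.11, P2rx7 0.58, Ada -1.71, Adk -0.85 and Slc29a1 -0.58. At an adjusted p under 0.01, 807 genes, 2 of the 7 and 10 of the 105 passed. Renewed quantile normalization took Slc29a1 to -0.49 (adjusted p = 0.0513). With 1 array left out, where the remaining array of that line is taken to vary as the other line does, differences ran from 4.76 to 5.18 for Entpd1, -2.52 to -1.70 for Nt5e, 0.46 to 0.70 for P2rx7, -1.86 to -1.56 for Ada, -0.96 to -0.75 for Adk, -0.71 to -0.45 for Slc29a1 and -0.22 to -0.0014 for Dpp4. Calls numbered 979 to 2198 over all genes, 2 to 5 of the 7 and 11 to 20 of the 105. Fewer residual degrees of freedom remain then. Dpp4 has no value with the dimmest 30% of genes left out. Signal over background was not examined, which limits values of dim probe sets. Among them are Entpd1, P2rx7, Casp1, Pde8a, P2rx3, Acpp and Slc17a9 in TS1, Nt5e, Adcy6 and P2ry2 in TS2, and Dpp4.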
